A study of Mus musculus with 8 samples.

Results

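Pericytes are the mural cells that sit on the outside of capillaries and small venules, embedded in the basement membrane they share with the endothelium. Endothelial PDGF-B holds them there through the receptor PDGFRB, NOTCH3 signalling keeps them in their mural state, and an ATP-sensitive potassium channel sets how readily they relax. In fat pads they are also known as a possible source of new adipocytes. The genes described here are 7 that are widely used to mark these cells: Pdgfrb, Notch3, Mcam, Cspg4, Rgs5, Kcnj8 and Abcc9. They were chosen by name, and all 7 were found among the 54532 genes of the deposited table.

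Messenger RNA was read in iWAT, inguinal white adipose tissue, which is a subcutaneous depot. The mice were male and HFD-fed, that is, given a diet rich in fat. The groups were wild type (WT, n = 4) and KLF10AKO (n = 4), mice whose adipocytes lack the Krüppel-like factor KLF10, and both groups shared the diet, the sex and the tissue. The sources used here do not state the driver of the deletion, the age or the animal behind each library, so a p-value reflects only the spread among libraries, which may be technical. Values are FPKM, fragments per kilobase of gene length and per unit of library size, with read totals at 0.901 to 1.09 times the size that the values imply.

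Whole reads recovered from the FPKM ranged from 15537863 to 17499132 per library. The targeted gene Klf10 had a WT mean of 18.2 ± 2.09 FPKM against 9.60 ± 0.157 for KLF10AKO (± SD, n = 4 each). The adipocyte list, 14 markers summing to between 13298 and 14568 FPKM in WT, summed to between 3458 and 4815 in KLF10AKO, with 14 of 14 lower. Lymphocyte genes went the other way: the 8 B cell genes summed to between 2.88 and 4.08 FPKM in WT and to between 1066 and 1581 in KLF10AKO. Skeletal muscle genes, 12 in the list, came to 167 to 220 FPKM per WT library, of which Acta1 alone gave 160 to 213. The sum of the 12 was 4758, 3594 and 8365 FPKM for KLF10AKO replicates 1 to 3. It was 37.7 for replicate 4, with Acta1 at 20.9 there. The mean log2 level of the 12 genes was 0.18 higher in replicate 4 than in WT. Trophoblast genes were read in WT, where 8 of them summed to between 13.2 and 38.6 FPKM, and came to at most 0.105 in KLF10AKO. The part of these shifts in the pericyte results was not tested. In bulk tissue fewer cells of a type and less RNA per cell cannot be told apart.

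Most pericyte genes were lower in KLF10AKO iWAT, relative to the authors' scaling of the libraries. Of the 7, 6 passed as lower and 0 as higher, and Abcc9 did not pass, whereas 1 passed as lower and 6 as higher once libraries were scaled to their adipocyte markers. The median log2 change was -1.08, a 2.12-fold lower level, and 4 genes were at least 2-fold lower. Among all 16012 genes tested, 74.3% passed, 34.9% as lower and 39.4% as higher, with a median log2 change of 0.05. Scaled to adipocyte markers, 14281 of them passed as higher and 139 as lower. Scaled to blood endothelial markers, 11387 passed as higher and 1585 as lower. Counts given below under these scalings stand against those numbers. For the pericyte genes, KLF10AKO and WT values did not overlap in 6 of 7 cases, against 33.0% of all genes tested whose KLF10AKO values all lay below WT. The fall ran from 1.52-fold for Kcnj8 to 4.14-fold for Cspg4. Changes were tested with limma on log2(FPKM + 0.5), with p-values adjusted by Benjamini-Hochberg over all genes tested and a threshold of 0.05, a scale that understates the change of genes of low level.

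**Figure D1:**
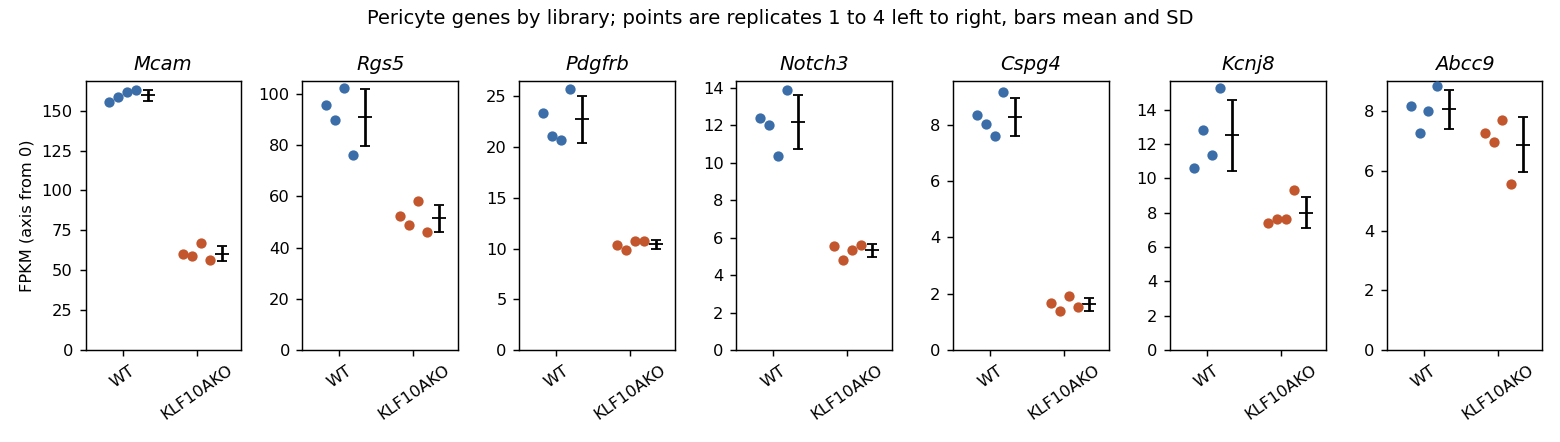
FPKM of the 7 pericyte genes in each library, WT in blue and KLF10AKO in orange, with the mean and SD of each group (n = 4) as a bar beside the points. For every gene but Abcc9 the lowest WT library lies above the highest KLF10AKO library.

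Pdgfrb (ENSMUSG00000024620, mm10 chromosome 18, 61045150 to 61085061, plus strand) encodes the receptor through which endothelial PDGF-B recruits and retains pericytes. WT replicates 1 to 4 had 23.4, 21.1, 20.7 and 25.7 FPKM, and KLF10AKO replicates 1 to 4 had 10.4, 9.82, 10.8 and 10.7. The KLF10AKO libraries lay close together and all far under WT. Its mean went from 22.7 ± 2.32 down to 10.4 ± 0.435 FPKM (± SD, n = 4 each), and its log2 change was -1.08 (standard error 0.0765, 95% interval -1.26 to -0.91, limma adjusted p = 2.15e-06).

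Partners of this receptor were lower as well. All 5 tested genes of the PDGF family outside the pericyte set passed as lower, at a median log2 change of -0.95, but 3 passed as higher and 1 as lower with adipocyte scaling. A further gene, Pdgfrl, was under the filter of 0.5 FPKM. Pdgfb, the ligand made by endothelium, changed by -0.95 on the log2 scale, from 23.5 ± 1.27 to 11.9 ± 1.03 FPKM (± SD, n = 4 each). Pdgfd, another ligand of PDGFRB, changed by -2.002, from 18.6 ± 0.532 to 4.34 ± 0.944 FPKM. Pdgfra, the receptor of fibroblasts and adipocyte progenitors, changed by -0.82 and the ligand gene Pdgfc by -1.15.

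Notch3 (ENSMUSG00000038146, chromosome 17, 32120820 to 32166880, minus strand) encodes the Notch receptor of pericytes and arterial smooth muscle. Its WT values were 12.4, 12.01, 10.4 and 13.9 FPKM in replicates 1 to 4, and its KLF10AKO values 5.57, 4.80, 5.35 and 5.59. The lowest WT library, replicate 3, was still well above the highest KLF10AKO library. The log2 change was -1.12 (standard error 0.0913, 95% interval -1.32 to -0.91, limma adjusted p = 5.44e-06), from 12.2 ± 1.45 to 5.33 ± 0.367 FPKM (± SD, n = 4 each). Notch3 shares 488 exonic bases with the antisense gene Gm17276, which had at most 6 reads in any library.

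The wider Notch pathway was divided. Of 17 tested genes, 8 passed as lower, 2 as higher and 7 did not pass, with a median log2 change of -0.15, while TPM gave 5 higher, endothelial scaling 11 and adipocyte scaling all 17. Vascular members were among the lower ones. Notch4, an endothelial receptor, changed by -1.06, the ligand gene Jag1, which presents to NOTCH3, by -0.99, and Heyl, a mural target gene of NOTCH3, by -0.74. Notch2, a receptor that many leukocytes also use, rose by 1.47 on the log2 scale, from 4.22 ± 0.184 to 12.7 ± 1.67 FPKM (± SD, n = 4 each). When replicate 4 was the sole KLF10AKO library, 1 gene of the list passed as higher.

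Mcam (ENSMUSG00000032135, chromosome 9, 44134469 to 44142727, plus strand), the adhesion molecule CD146 of pericytes, smooth muscle and endothelium, had the highest level per length of the set. In the order of replicates 1 to 4, the WT libraries had 156, 158, 161 and 163 FPKM and the KLF10AKO libraries 60.1, 59.0, 66.8 and 56.2. WT libraries differed little for this gene, with a standard deviation of 2.08% of the mean, and KLF10AKO libraries spread more, with 7.44%. Its log2 change was -1.39 (standard error 0.0650, 95% interval -1.54 to -1.25, limma adjusted p = 2.02e-07). Its antisense neighbour Gm10687 shares 17 exonic bases with it and ranged from 14.2 to 17.4 FPKM among WT libraries and from 4.52 to 5.87 among those of KLF10AKO. No source used here states the strand setting of the counting, so reads in those shared bases cannot be assigned.

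Cspg4 (ENSMUSG00000032911, chromosome 9, 56865033 to 56899870, plus strand) encodes the proteoglycan NG2, which pericytes carry on their surface and which binds collagen and growth factors. Its WT values were 8.34, 8.03, 7.58 and 9.16 FPKM in replicates 1 to 4, against 1.68, 1.39, 1.92 and 1.52 in KLF10AKO. No other gene of the set was set apart so widely between the groups. The log2 change was -2.05 (standard error 0.0937, 95% interval -2.26 to -1.84, limma adjusted p = 1.79e-07), and only 0.443% of all genes tested had a lower one. Without the pseudocount the means, 8.28 ± 0.665 and 1.63 ± 0.230 FPKM (± SD, n = 4 each), differ 5.09-fold. Over its merged exons, 11931 annotated bases, Cspg4 still had 314 to 415 reads per KLF10AKO library, so counting error is at most 5.64% of a value.

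Rgs5 (ENSMUSG00000026678, chromosome 1, 169655501 to 169695813, plus strand) encodes a brake on G-protein signalling that is a classical mark of pericytes. Its 4 WT libraries had 95.4, 89.9, 102 and 76.0 FPKM in replicate order, and its 4 KLF10AKO libraries 52.2, 48.6, 58.3 and 46.1. WT replicate 4 was the lowest of its group and remained above every KLF10AKO library. Rgs5 fell by 0.81 on the log2 scale (standard error 0.106, 95% interval -1.06 to -0.57, limma adjusted p = 1.09e-04), its means being 90.9 ± 11.1 and 51.3 ± 5.29 FPKM (± SD, n = 4 each). Its relatives of the R4 subfamily went both ways, with 4 of 6 tested genes higher and 2 lower at a median log2 change of 0.60, and with 0 lower under adipocyte or endothelial scaling. Rgs4, also found in mural cells, changed by -1.01 and Rgs3 by -0.69, while Rgs1, abundant in lymphocytes, rose by 1.32 and Rgs2 by 0.88.

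Kcnj8 (ENSMUSG00000030247, chromosome 6, 142564837 to 142571614, minus strand) encodes Kir6.1, the pore of the vascular ATP-sensitive potassium channel. WT replicates 1 to 4 stood at 10.6, 12.8, 11.4 and 15.3 FPKM, against 7.43, 7.65, 7.62 and 9.34 for KLF10AKO replicates 1 to 4. Replicate 4 was the highest library within each group, and the groups did not overlap. The means were 12.5 ± 2.05 and 8.01 ± 0.892 FPKM (± SD, n = 4 each), with a log2 change of -0.60 (standard error 0.118, 95% interval -0.87 to -0.34, limma adjusted p = 0.00140). With replicate 4 as the sole KLF10AKO library, which leaves that group no spread, the log2 change of Kcnj8 was -0.39. With TPM it missed the threshold (-0.42, limma adjusted p = 0.0516).

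Abcc9 (ENSMUSG00000030249, chromosome 6, 142587862 to 142702315, minus strand) encodes SUR2, the regulatory subunit that surrounds that pore, and lies 16247 bases from Kcnj8 on the same strand. Its WT libraries, replicates 1 to 4, had 8.18, 7.26, 8.01 and 8.85 FPKM, and those of KLF10AKO had 7.26, 6.98, 7.71 and 5.57. KLF10AKO replicate 4 was the lowest of all 8 libraries, and replicate 3 lay within the WT range. The log2 change of -0.22 did not pass (standard error 0.102, 95% interval -0.45 to 0.01, limma adjusted p = 0.0758), nor did the exact two-sided permutation test of the 8 values (p = 0.0571). That permutation p was 0.0286 for each of the other 6 genes, the smallest that 4 against 4 libraries can give. Without KLF10AKO replicate 3 Abcc9 passed as lower at -0.28 (limma adjusted p = 0.0400), and without KLF10AKO replicate 4 it stood at -0.13 (limma adjusted p = 0.158). With replicate 4 as the sole KLF10AKO library, which leaves that group no spread, it stood at -0.50. With TPM its log2 change was -0.03 (limma adjusted p = 0.850). Its 158 exonic bases shared with the antisense gene 5330439B14Rik hold few reads, since that gene had at most 4 in any library.

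The channel subunits differed in library order within KLF10AKO: Kcnj8 was highest and Abcc9 lowest in replicate 4. SUR2 is also the regulatory subunit of the channel of skeletal muscle, where its pore is Kir6.2, the product of Kcnj11. Kcnj11 had 288, 201 and 411 reads in KLF10AKO replicates 1 to 3, at 4.13, 2.88 and 6.16 FPKM, and 3 reads in replicate 4. In WT it had 0 reads in replicates 1 to 3 and 3 in replicate 4. Skeletal muscle genes had that same division, 4758, 3594 and 8365 FPKM in sum against 37.7 in replicate 4, and their part in the Abcc9 level was not tested. The log2 ratio of Kcnj8 to Abcc9 averaged 0.59 ± 0.207 for WT and 0.21 ± 0.330 for KLF10AKO (± SD, n = 4 each), with 0.03, 0.12, -0.02 and 0.70 in KLF10AKO replicates 1 to 4. This difference did not pass (exact permutation p = 0.0857, adjusted p = 0.115).

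**Figure D2:**
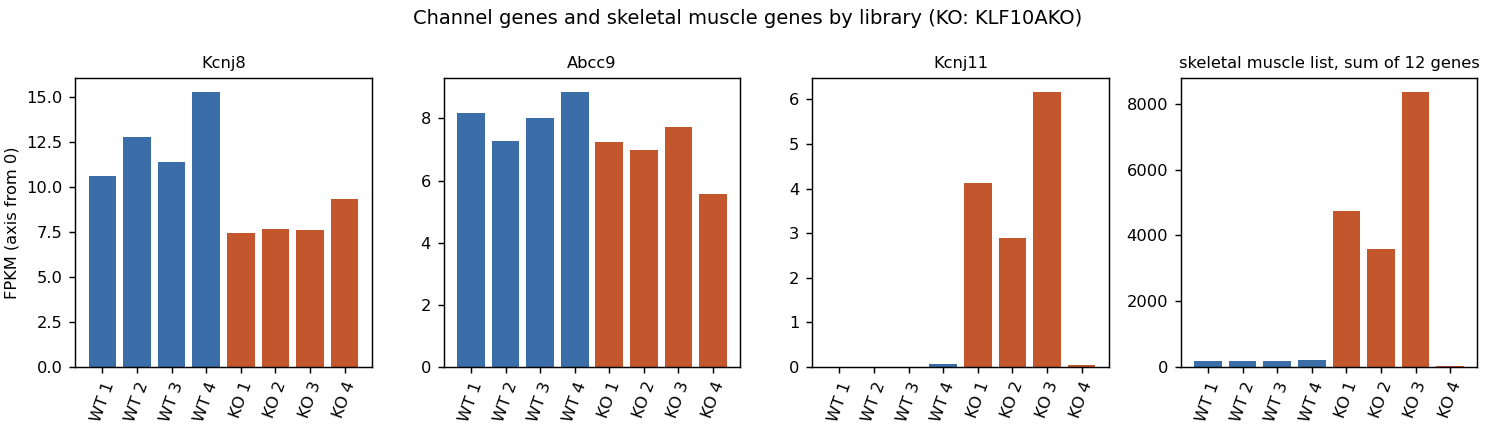
FPKM by library of Kcnj8, Abcc9 and Kcnj11, and the summed FPKM of 12 skeletal muscle genes, with WT bars in blue and KLF10AKO bars in orange and each axis starting at 0. Kcnj11 and the muscle sum are high in KLF10AKO replicates 1 to 3 and near the WT level or under it in replicate 4. In that library Abcc9 is lowest and Kcnj8 highest within the group. The WT muscle sum is mostly Acta1 (160 to 213 FPKM).

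Promoter sequences were set beside these values. The genes with the smallest and the largest change differ in a short motif, a contrast picked after their values were seen. Its link to the change was not tested, and the deletion is in adipocytes. RefSeq windows on GRCm38.p6, 300 bases long with 250 before the start and 50 after it, were given for 6 of the 7 genes, all but Pdgfrb. Each was searched on both strands for CACCC, a core that Krüppel-like factors are known to bind, for GTGGGAA, the site of the Notch effector RBPJ, for the CArG box of serum response factor and for TATAAA. Matches of CACCC may touch each other, as they do in Kcnj8, and its letters overlap none of the other motifs in full. The windows of Kcnj8, Abcc9 and Cspg4 are printed 5′ to 3′ on the strand of the gene, with CACCC or its reverse complement GGGTG in capitals.
Kcnj8 (chr6:142571565-142571864, minus strand): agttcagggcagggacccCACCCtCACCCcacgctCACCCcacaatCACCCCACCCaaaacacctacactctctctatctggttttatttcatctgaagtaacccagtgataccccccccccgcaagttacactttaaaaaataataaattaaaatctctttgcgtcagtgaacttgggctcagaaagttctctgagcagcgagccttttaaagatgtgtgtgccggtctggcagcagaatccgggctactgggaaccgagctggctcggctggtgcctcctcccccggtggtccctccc
Abcc9 (chr6:142702225-142702524, minus strand): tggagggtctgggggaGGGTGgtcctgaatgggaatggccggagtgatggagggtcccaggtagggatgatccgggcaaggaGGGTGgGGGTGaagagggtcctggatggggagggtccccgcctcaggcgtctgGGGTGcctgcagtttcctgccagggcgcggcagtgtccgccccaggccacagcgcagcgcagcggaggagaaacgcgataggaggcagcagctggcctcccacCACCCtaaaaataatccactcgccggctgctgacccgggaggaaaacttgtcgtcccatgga
Cspg4 (chr9:56864854-56865153, plus strand): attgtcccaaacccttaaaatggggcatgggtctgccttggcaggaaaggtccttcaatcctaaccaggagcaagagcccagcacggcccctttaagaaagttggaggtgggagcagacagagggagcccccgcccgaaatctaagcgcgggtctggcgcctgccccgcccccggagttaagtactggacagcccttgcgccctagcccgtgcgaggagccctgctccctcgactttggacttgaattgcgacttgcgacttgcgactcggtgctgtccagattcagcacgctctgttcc

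Kcnj8 and Abcc9 held 5 matches each to CACCC, and Cspg4, Mcam, Notch3 and Rgs5 held 0. Of 32851 mouse promoter windows of this length, 57.5% held at least 1 match and 1.02% held 5 or more. In Kcnj8 all 5 lie near the upstream end of the window, in a cytosine-rich stretch. GTGGGAA, the CArG box and TATAAA had 0 matches in the 6 windows, and were found in 6.38%, 1.63% and 13.6% of all windows. A match is a description of letters and no match says only that these letters are not in this window. G and C made up 53.3% of the Kcnj8 window and 72.7% of that of Mcam.

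Levels per length ranked Mcam first and Rgs5 second in WT, and together these made up 79.7% of the summed FPKM of the set. Pdgfrb came next, then Kcnj8 and Notch3, whose ranges overlapped, then Cspg4 and Abcc9, whose ranges also overlapped. In KLF10AKO the same order held for the first 3, now with overlapping ranges of Mcam and Rgs5, and Cspg4 moved to the last place, under Notch3 with no overlap. The means spanned 19.8-fold in WT and 37.2-fold in KLF10AKO. Summed over the 7 genes, WT libraries held 309 to 322 FPKM and KLF10AKO libraries 135 to 158.

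The set was also compared with itself, through log2 ratios between genes of a library at log2(FPKM + 0.5). The pseudocount leaves these ratios some dependence on scaling, which cancels only without it. Across the 21 pairs, the log2 ratio differed between KLF10AKO and WT in 15. Each of these had an exact two-sided permutation p of 0.0286, the smallest possible, and an adjusted p of 0.0435 over 35 ratios. That adjusted value depends on 23 of the 35 ratios sharing the smallest p. The pairs share genes, so they are not independent tests. Pairs of genes outside the set were not tested, so 15 of 21 has no background share to stand against. Among single genes, 74.3% of all tested with limma passed in either direction. Cspg4 fell against each of the other 6 genes of the set. Its log2 ratio to Mcam went from -4.19 ± 0.104 in WT to -4.85 ± 0.0884 in KLF10AKO (± SD, n = 4 each), lower in 4 of 4 KLF10AKO libraries than in any WT library, a difference of -0.65, or -0.95 with no pseudocount. Its ratio to Pdgfrb fell by 0.96 and its ratio to Abcc9 by 1.83 on the log2 scale. With no pseudocount the same 15 pairs passed.

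Pdgfrb and Notch3 kept nearly the same ratio, a log2 value of 0.88 ± 0.0718 for WT and 0.91 ± 0.0571 for KLF10AKO (± SD, n = 4 each, exact permutation p = 0.571, adjusted p = 0.588). A p that misses the threshold does not show that they act alike, but the difference of 0.03 was smaller than either spread. With no pseudocount it was 0.07. Mcam fell against Pdgfrb by 0.31, against Rgs5 by 0.58, against Kcnj8 by 0.79 and against Abcc9 by 1.17 on the log2 scale, and its ratio to Notch3 missed the threshold (exact permutation p = 0.0571, adjusted p = 0.0800). Abcc9 gained on every gene of the set but Kcnj8. With replicate 4 as the sole KLF10AKO library its gain fell from 0.86 to 0.55 over Pdgfrb and from 0.89 to 0.55 over Notch3.

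**Figure D3:**
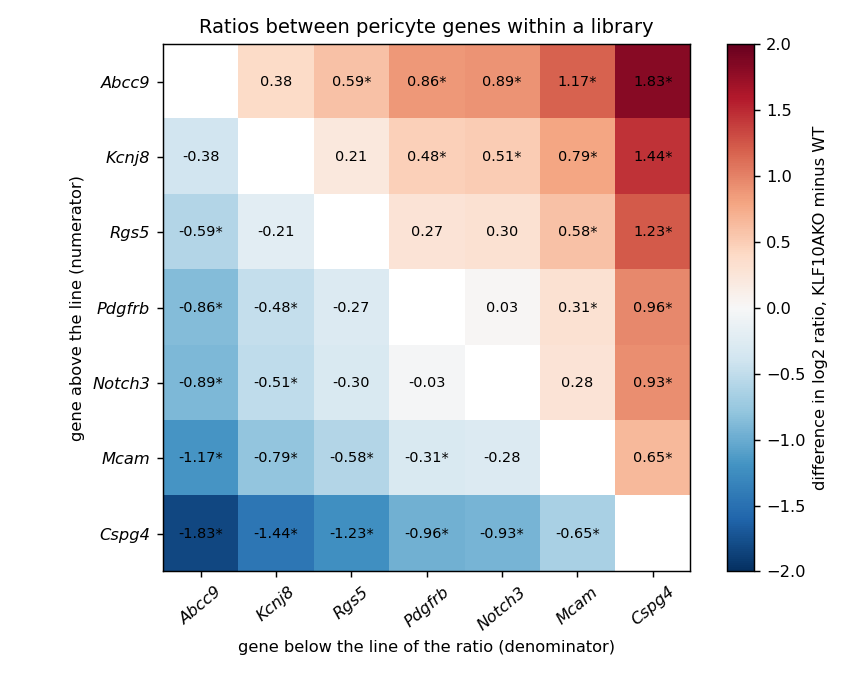
Difference between KLF10AKO and WT in the log2 ratio of each pair of pericyte genes (row over column), with genes ordered by their log2 change and an asterisk where the adjusted p of the exact permutation test is under 0.05. Cspg4 is lower against every other gene, with Abcc9 over Cspg4 at 1.83, while Pdgfrb over Notch3 stands at 0.03.

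Pericytes and endothelial cells share each capillary, so each gene was also set against 14 blood endothelial markers. Of these markers 13 passed as lower and 1 did not pass, at a median log2 change of -0.99, while all 14 passed as higher with adipocyte scaling. Sox18, an endothelial transcription factor, changed by -1.17 and Mmrn2, an endothelial matrix protein gene, by -1.11. Their sum was 752 to 820 FPKM per WT library and 364 to 414 per KLF10AKO library. Over the mean log2 level of this list, Cspg4 fell by 1.12 and Mcam by 0.46, and Abcc9 rose by 0.71 (exact permutation p = 0.0286, adjusted p = 0.0435 each, with no overlap between the groups). The ratios of Rgs5 (0.12), Pdgfrb (-0.15), Notch3 (-0.18) and Kcnj8 (0.33) did not pass, and overlapped between the groups.

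Smooth muscle, the other mural cell type, was read from 12 genes, of which 7 passed as lower, 1 as higher, 1 did not pass and 3 were under the filter, with 7 higher and 1 lower under adipocyte scaling. Acta2, smooth muscle actin, changed by -2.24 on the log2 scale, from 526 ± 98.7 to 109.7 ± 10.4 FPKM (± SD, n = 4 each). Myl9 and Myh11, light and heavy chains of smooth muscle myosin, changed by -1.25 and -0.81. Des, the intermediate filament gene of every muscle type, was the gene that passed as higher, at 3.45, named after its value was seen. It stood at 5.95 to 6.81 FPKM in the WT libraries, and at 117, 89.2, 192 and 14.3 in KLF10AKO replicates 1 to 4, with the skeletal muscle sums. The mean log2 level of all 12 genes, Des included, fell by 0.51. Without Des it fell by 0.87, and without Des and the 3 genes under the filter by 1.14, so the ratios to this list depend on which of its genes are used. With all 12 genes, the ratio fell by 1.54 for Cspg4, 0.89 for Mcam, 0.61 for Notch3 and 0.58 for Pdgfrb and rose by 0.28 for Abcc9, each at an adjusted p of 0.0435 (exact permutation test), while Rgs5 (-0.31, adjusted p = 0.0800) and Kcnj8 (-0.10, adjusted p = 0.629) did not pass. With the 8 tested genes other than Des, a choice made after seeing the data, Cspg4 stood at -0.91 and Mcam at -0.25, and Abcc9 at 0.92, Kcnj8 at 0.54 and Rgs5 at 0.33, each at an adjusted p of 0.0435 (exact permutation test). Pdgfrb at 0.0555 and Notch3 at 0.0245 did not pass there (adjusted p = 0.735 and 0.800, exact permutation test), nor with Des alone left out (-0.22 and -0.25). Over all 12 genes Pdgfrb and Notch3 also missed the threshold with a pseudocount of 0.1 (adjusted p = 0.115 and 0.0909, exact permutation test). With no pseudocount they stood at -0.37 and -0.44 and did not pass (adjusted p = 0.138 each, exact permutation test).

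Further genes used to mark pericytes gave a similar picture with exceptions. Of 13 tested, 9 passed as lower, 2 as higher and 2 did not pass, with a median log2 change of -0.95, while 8 passed as higher with adipocyte scaling and 5 with endothelial scaling. Itga7, a laminin receptor subunit, changed by -2.01 on the log2 scale, from 43.8 ± 4.45 to 10.5 ± 1.24 FPKM (± SD, n = 4 each). Art3, an ecto-enzyme gene, changed by -1.70 and Steap4, a metalloreductase gene also expressed by adipocytes, by -2.03. Vtn, which encodes the matrix protein vitronectin, rose from 5.74 ± 0.447 to 12.6 ± 0.743 FPKM, a log2 change of 1.07. The other gene that rose was Ggt1 at 1.73, from 0.0269 ± 0.0418 to 1.25 ± 0.213 FPKM (± SD, n = 4 each). Ggt1 passed the filter only through its KLF10AKO values, and the pseudocount sets the size of its change. Cox4i2 at -0.25 and Colec11 at 0.20 did not pass. Ggt1, Cox4i2 and Colec11 were named after their values were seen. Art3 shares 133 exonic bases with the chemokine gene Cxcl10, 3.38% of its exons.

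Transcripts of genes that bear on mural tone and vessel stability were mostly lower with the authors' scaling. Bulk tissue does not show which cells they came from. Of 11 tested vasoactive receptor and cyclic GMP genes 10 passed as lower and 1 as higher, at a median of -1.27, against 1 lower and 7 higher with adipocyte scaling. Gucy1a1 and Gucy1b1, the subunits of the nitric oxide receptor, changed by -1.04 and -0.98, the natriuretic peptide receptor gene Npr1 by -1.37 and the prostaglandin receptor gene Ptger3 by -1.71. Among 6 angiopoietin and TIE genes 5 passed as lower and 0 as higher, with a median of -1.29, against 0 lower and 5 higher with adipocyte scaling. Angpt1, the ligand that mural cells give to the endothelium, changed by -1.48, its receptor gene Tek by -1.33, Tie1 by -1.28 and the phosphatase gene Ptprb by -1.30. Without WT replicate 3, 1 gene of this list passed as higher.

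**Figure D4:**
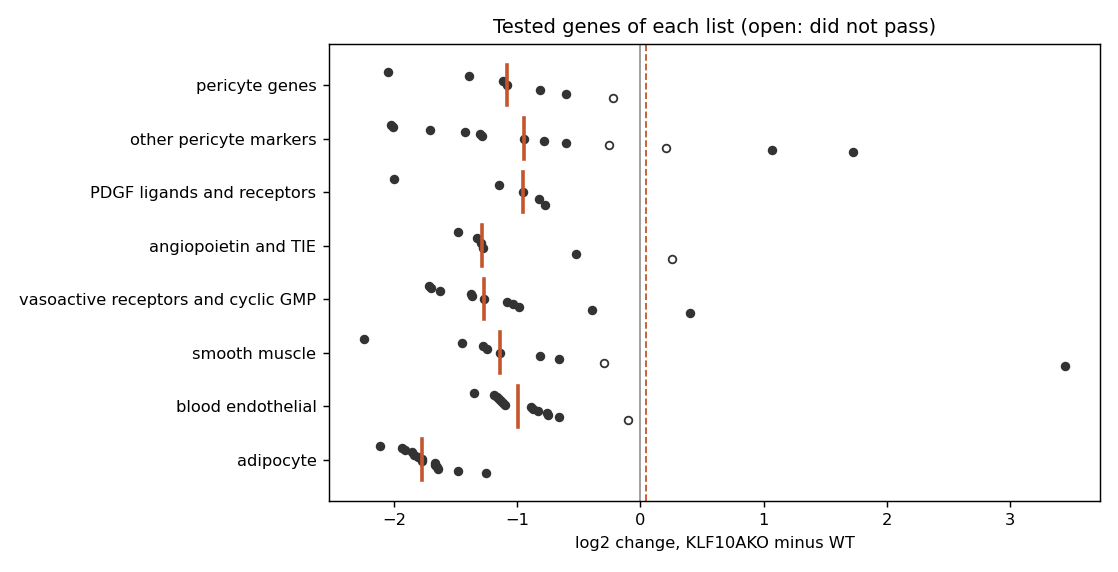
Log2 change of each tested gene in the pericyte set and in 7 other lists, filled where limma's adjusted p is under 0.05, with the list median as a solid orange line and the median of all genes tested, 0.05, as a dashed one, all with the authors' scaling. The pericyte median of -1.08 lies near those of the endothelial list (-0.99) and the smooth muscle list (-1.14), and that of the adipocyte list is -1.77.

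How the libraries were scaled decided the sign for most of the set. Scaled to the mean of the 14 adipocyte markers, 6 of the 7 genes passed as higher and Cspg4 alone passed as lower, at -0.54 (limma adjusted p = 0.00112). Scaled to the 14 endothelial markers, 3 passed as lower (Cspg4 at -1.25, Mcam at -0.47 and Notch3 at -0.24) and Abcc9 passed as higher at 0.65. Notch3 passed narrowly there (limma adjusted p = 0.0475). Its ratio to the same markers, given above, did not pass the exact permutation test (-0.18, adjusted p = 0.172). These scalings moved the median log2 change of all genes tested to 1.53 and 0.84. Relative to that median the pericyte median stood at -0.93 and -1.03, against -1.13 with FPKM as the authors scaled it, and all 7 genes lay under it in each case. Dividing a library by a factor shifts the log2 levels of all its genes alike, apart from the pseudocount. These distances, and the place under the median, were therefore nearly fixed in advance. TPM, which is also such a division, and quantile normalization gave -1.15 and -1.02 on the same relative measure. The share of higher genes among all that passed was 53.0% with the authors' scaling, 63.4% with TPM, 41.2% with quantile normalization, 87.8% with endothelial scaling and 99.0% with adipocyte scaling.

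**Figure D5:**
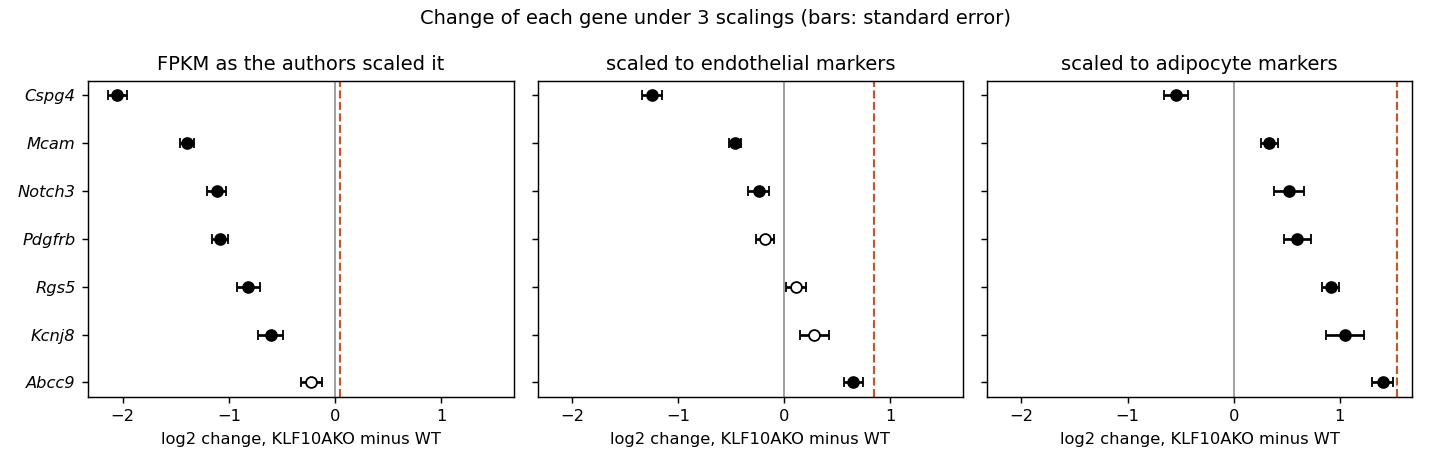
Log2 change of each pericyte gene with its standard error under 3 scalings, filled where limma's adjusted p is under 0.05, with a dashed line at the median of all genes tested (0.05, 0.84 and 1.53 from left to right). The genes keep nearly the same distances from each other, with Cspg4 lowest and Abcc9 highest in every panel, and all lie left of the dashed line. This follows from dividing all genes of a library by the same factor.

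Averaged over the 7 genes, log2 levels of WT replicates 1 to 4 were 4.55, 4.52, 4.51 and 4.66, and those of KLF10AKO replicates 3.54, 3.45, 3.62 and 3.48. Among 10442 other protein-coding genes with a mean of at least 2 FPKM, those with the highest Pearson correlation to this average over the 8 libraries were Tns1, Plxna2, Pdzd2, Fgfrl1 and Slc22a3, each at an r that rounds to 0.999. Tns1 links integrins to actin, Plxna2 is a semaphorin receptor gene and Slc22a3 encodes a transporter of organic cations. These libraries share their group difference, and 30.7% of those genes had an r over 0.9, so the values describe the order of 8 points. Within groups the set did not move as a block: Rgs5 and Pdgfrb had an r of -0.81 over the 4 WT libraries and 0.34 over the 4 KLF10AKO libraries. Kcnj8 and Abcc9 had 0.37 over WT and -0.95 over KLF10AKO, while Pdgfrb and Notch3 had 0.90 and 0.81.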

How the data were processed

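Poly(A)-selected libraries with fragments of 370 to 420 bp were sequenced, per the labels' protocols. The submitters' processing notes name the build mm10 and 3 tools, which are featureCounts 1.5.0-p3, HISAT2 2.0.5 and edgeR 3.22.5, with no role stated. Annotation release and strandedness were not given in the sources used here. FPKM is the unit of the deposited values, computed by the authors. FPKM times gene length gave whole reads in 100% of values within 0.01 of a read. Divided by the size that the authors' FPKM imply, the read totals of WT gave 1.05 to 1.09 and those of KLF10AKO 0.901 to 0.939.

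Limma 3.58.1 in R 4.3.3 (lmFit, then eBayes with trend, no covariate) was fitted to log2(FPKM + 0.5) of 16012 genes with a mean of at least 0.5 FPKM. Two-sided p-values were adjusted by Benjamini-Hochberg. Exact permutation tests used SciPy 1.17.1. They covered 21 pairs of the set and 7 ratios each to an endothelial and a smooth muscle list, adjusted over 35. The fit was run on simulated data with a single dispersion and far fewer changed genes than passed here. It recovered 90% of 2-fold and 66% of 1.5-fold changes, and 4.88% of its calls were false. The genes and lists were chosen with earlier results of these data known. Named were the 7 genes, Klf10, up to 4 genes of lowest p in each list and the 5 genes of highest correlation. Replicates differed by more than counting noise in every pair, with a mean squared z of at least 4.50. PCR reads carry no molecular identifiers, so counting errors cover counting alone. Gene identifiers matched GENCODE M21 in 99.9% of cases. The alternatives appear in the closing section. A fit with replicate 4 as the sole KLF10AKO library takes its spread from WT alone. Lists not described above stood as follows. Fibroblast and progenitor genes had 3 higher and 8 lower of 12, T cell genes 8 higher of 8, and lymph node stroma genes 8 higher of 9. Most tested T cell, lymph node stroma and skeletal muscle genes, and Kcnj11 among the potassium channel partners, had WT means under the filter. They entered the test through KLF10AKO, so a call as higher was nearly fixed in advance. Macrophage genes had 1 higher and 4 lower of 8, and Schwann genes 1 higher and 4 lower of 6, with 0 higher without any single WT library or without KLF10AKO replicate 2 or 4. Trophoblast genes had 3 lower of 3. Each of these was at 0 FPKM in all KLF10AKO libraries and passed the filter only through WT, which fixed the direction. Skeletal muscle genes had 9 higher of 11, but 5 higher and 3 lower when replicate 4 was the sole KLF10AKO library. Potassium channel partners had 1 higher of 2, which became 2 without KLF10AKO replicate 4, and 0 higher and 1 lower with it as the sole library.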

Additional observations from a re-analysis of the deposited data

Results flagged for a closer look

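Within groups of 4, a library was listed when its gap to the nearest other exceeded Dixon's 95% critical share of the group's range. Of 84 groups examined (7 genes and 35 ratios), 6 were listed, and chance lists about 1 in 20. Kcnj8 stood at 9.34 FPKM in KLF10AKO replicate 4, above the other 3 libraries of its group. Its log2 ratio to the smooth muscle list was 1.27 in that library, the highest of its group. The log2 ratio of Pdgfrb to Abcc9 was 0.88 in KLF10AKO replicate 4, the highest of its group, and 1.32 in WT replicate 3, the lowest of its group. The log2 ratio of Notch3 to Kcnj8 was 0.22 in WT replicate 1, above the other 3. Cspg4 over Mcam stood at -4.98 in KLF10AKO replicate 2, below the other 3.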

How the results depend on the processing

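The count of 6 lower and 0 higher genes held within 1.5 times under TPM, pseudocounts of 1 or 0.1, the absence of a filter, a mean of at least 2 FPKM, quantile normalization, robust eBayes, library weights and the replicate block. It also held when replicate 4 was the sole KLF10AKO library, assumed to vary like WT, and under voom on recovered reads and equal total reads, both chosen after seeing the data. With adipocyte scaling 6 were higher and 1 lower: Rgs5 stood at 0.91, Pdgfrb at 0.60, Notch3 at 0.52, Kcnj8 at 1.05, Abcc9 at 1.40 and Mcam at 0.34. With endothelial scaling 1 was higher and 3 lower, with Rgs5 at 0.11, Pdgfrb at -0.18, Kcnj8 at 0.28 and Abcc9 at 0.65. Of all genes, 14281 were then higher and 139 lower with adipocyte scaling, and 11387 and 1585 with endothelial scaling, against 6305 and 5588. A required log2 change of 1 left 1777 higher and 807 lower, and 2 of the set. Rgs5 (-0.81), Pdgfrb (-1.08), Notch3 (-1.12) and Kcnj8 (-0.60) then did not pass. Kcnj8 did not pass with TPM (-0.42), and stood at -0.39 with replicate 4 as the sole KLF10AKO library. Abcc9 passed with quantile normalization (-0.41) and library weights (-0.19), and stood at -0.50 with replicate 4 as the sole KLF10AKO library. With TPM Abcc9 stood at -0.03 and with equal total reads at -0.02, and it passed in neither. The cause was not tested.

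Leaving out each library in turn kept 0 genes higher and 6 to 7 lower, with ranges of -0.28 to -0.13 for Abcc9, -2.11 to -1.99 for Cspg4, -0.68 to -0.51 for Kcnj8, -1.44 to -1.36 for Mcam, -1.19 to -1.05 for Notch3, -1.13 to -1.02 for Pdgfrb and -0.90 to -0.76 for Rgs5. Same-numbered libraries correlated at 0.003 to 0.031 in their deviations from the group means, and differently numbered ones at -0.0176 to 0.0112. Correlations this small cannot settle whether the numbers pair the libraries. The replicate block left 6 of the set lower and 0 higher, and 6220 and 5506 of all genes. The count of passing ratios, 23 of 35, stayed within 1.5 times under all 5 alternatives with a test, but ratios to the smooth muscle list turned without Des and the genes under the filter: Rgs5 to 0.33, Pdgfrb to 0.0555, Notch3 to 0.0245 and Kcnj8 to 0.54. Over the full smooth muscle list, Pdgfrb and Notch3 did not pass with a pseudocount of 0.1 or with none. Ratios were not tested with a library left out, since 3 against 4 cannot reach the threshold. Negative binomial count tests were not run, since the deposited unit is FPKM. Depth limits Cspg4 in KLF10AKO (314 to 415 reads per library) and Kcnj8 (352 to 571) most.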

Other observations

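Pecam1, the endothelial adhesion gene that leukocytes and platelets also express, had means of 51.9 ± 2.28 FPKM for WT and 48.3 ± 2.29 for KLF10AKO (± SD, n = 4 each), a log2 change of -0.10 that did not pass (limma adjusted p = 0.142), while the other 13 endothelial markers passed as lower. S1pr3, a sphingosine phosphate receptor gene, was the gene of the vasoactive list that passed as higher, at 0.40. Hes5, a Notch target gene, was under the filter, with 0 reads in the WT libraries and 0.739 ± 0.120 FPKM in KLF10AKO (SD, n = 4). These genes were singled out after their values were seen.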
